A study of Cyanidioschyzon merolae with 75 samples.

Results

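The genes described here are 29 genes of the red alga Cyanidioschyzon merolae whose transcript ratio followed a daily course with a fitted peak from 13 h to less than 2.5 h later, counted from the onset of a synchronised culture. They were chosen by their measured values among 4576 genes on the array. The values used were the log2 ratios of the time point's RNA over a pooled reference at 25 times, centred on each array's median and averaged over a gene's probes. A cosine and sine of 24 h were fitted to them by least squares. A gene was kept when the fitted peak-to-trough difference was at least 1 on the log2 scale, which is a 2-fold change, and when the fit accounted for at least 0.4 of the variance (R2). In this window 37 genes met the limits, and 8 of these were among 11 genes that the rule leaves out.

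The strain was Cyanidioschyzon merolae 10D, the same in every sample, and the labels name no mutation, transgene or drug. Cultures were synchronised by light/dark cycles and sampled every 2 h from 2 to 50 h, over 2 cell cycles, so that each group is 1 sampling time. Total RNA of each time was amplified and labelled with Cy3, and hybridised beside a Cy5-labelled mixture of all the samples. The 75 deposited samples form 3 series of 25 times, of which 73 hold intensities for both dyes. Series 3 was the mean of series 1 and 2 at all 24 times with intensities in the 3 series (within 0.01%), and the labels do not say that series 1 and 2 came from separate cultures, so the 3 were counted as 1 sample per time. Every p-value below therefore sets an effect against the scatter of the times about a fitted course, or of differences between matched times about their mean. The tests take the times as independent, although they follow each other in 1 course. The labels do not state the hours of light and dark.

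Cyanidioschyzon merolae is a unicellular alga of hot acidic springs with a single nucleus, a single chloroplast and a single mitochondrion. Light/dark cycles bring a culture into step, because cells grow in the light and divide after it. In each division the chloroplast and the mitochondrion divide before the nucleus and the cell. In dividing eukaryotes the transcripts for replication, mitosis and division are commonly made in a limited part of the cycle. The reference used here pairs the 29 genes with locus tags alone, so no role is stated for any of them and they are described by their courses. In a culture, a larger share of cells at a stage and more RNA per cell cannot be told apart.

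Over all 4576 genes, 239 (5.22%) met the same limits on size and R2 at any peak time, and these values chose the 29 genes, so nothing is read from that share. On the values used for the choice, the peak-to-trough difference ran from 1.07 to 2.86, with a median of 1.47 and standard errors of 0.21 to 0.50. The fitted peaks ran from 13.001 to 15.25 h, with a median of 14.02 h and standard errors of 0.59 to 1.03 h. R2 ran from 0.40 to 0.67. The 12 genes with the largest peak-to-trough difference were CMJ159C (2.86), CMI242C (2.51), CMD161C (2.35), CMN330C (2.33), CMN183C (2.10), CMH128C (2.04), CMB086C (1.97), CMO005C (1.76), CMT447C (1.66), CMJ156C (1.66), CMF101C (1.58) and CMG015C (1.51). The other 17 were CMS301C, CMH122C, CML181C, CMR457C, CMB015C, CMR047C, CMJ298C, CMI243C, CME172C, CMI108C, CMH183C, CMR484C, CMP119C, CMI101C, CMI102C, CMI244C and CMO116C. The earliest fitted peaks were those of CMF101C (13.001 h), CMJ156C (13.06 h) and CMH183C (13.15 h), and the latest were those of CMN330C and CMI242C (15.20 h both) and CMR047C (15.25 h). No gene of the 29 had a second probe.

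Genes close to a limit differed little from those on its other side. For size, CMO116C (1.07) and CMI244C (1.11) were just inside, and CMR500C (0.93) and CMQ181C (0.86) just outside. For R2, CMR484C (0.400) and CMS301C (0.415) were kept while CMO238C (0.398) and CMS487C (0.388) were not. At the early edge CMI203C (12.99 h) and CMN066C (12.93 h) were left out beside CMF101C and CMJ156C. At the late edge CMB012C (15.503 h) and CMQ042C (15.67 h) were left out beside CMI242C and CMR047C. The standard errors of the peaks exceed these gaps.

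From here on, values are log2 ratios to the pool after loess normalisation within each array, so that 0 is the level of the pool relative to the average gene of that brightness. On that scale 28 of the 29 genes also met the limits, and CMH183C, with a fitted peak at 12.8 h, did not. The array's 4 brightest times were 2, 4, 6 and 26 h, with median Cy5 intensities of 12093 to 14416 against 552 to 4668 at the other 21 times. These 4 times lie in the troughs of the 29 genes, and the calls and sizes found without them are given beside the tests below.

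The median of the 29 genes stood above the pool at 3 consecutive times of the first cycle (2 to 24 h) and at 5 of the second (26 to 48 h), and below it otherwise. Over 10, 12, 14, 16, 18 and 20 h the median ratio was -0.93, -0.50, 0.55, 0.85, 0.44 and -0.36. None of the genes was above the pool at 10 h, whereas 8 were at 12 h, 24 at 14 h and 28 at 16 h. A day later, over 30, 32, 34, 36, 38, 40, 42 and 44 h, the median ratio was -0.74, -0.15, 0.78, 0.98, 1.09, 0.46, 0.19 and -0.47. At 34 h, which is 10 h within its cycle, 27 genes were already above the pool, and all 29 were at 36 and 38 h.

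The highest first-cycle value was that of 14 h in 11 genes, of 16 h in 14, of 18 h in 3 and of 12 h in 1. The highest second-cycle value was that of 34 h in 7 genes, of 36 h in 6, of 38 h in 15 and of 42 h in 1. The lowest value was less uniform over the first 24 h, being that of 8 or 10 h in 7 and 5 genes and that of 22 or 24 h in 4 and 8. Over the later 24 h, 14 genes were lowest at 48 h, the time at which the spread over all genes was widest (SD 0.47).

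**Figure D1:**
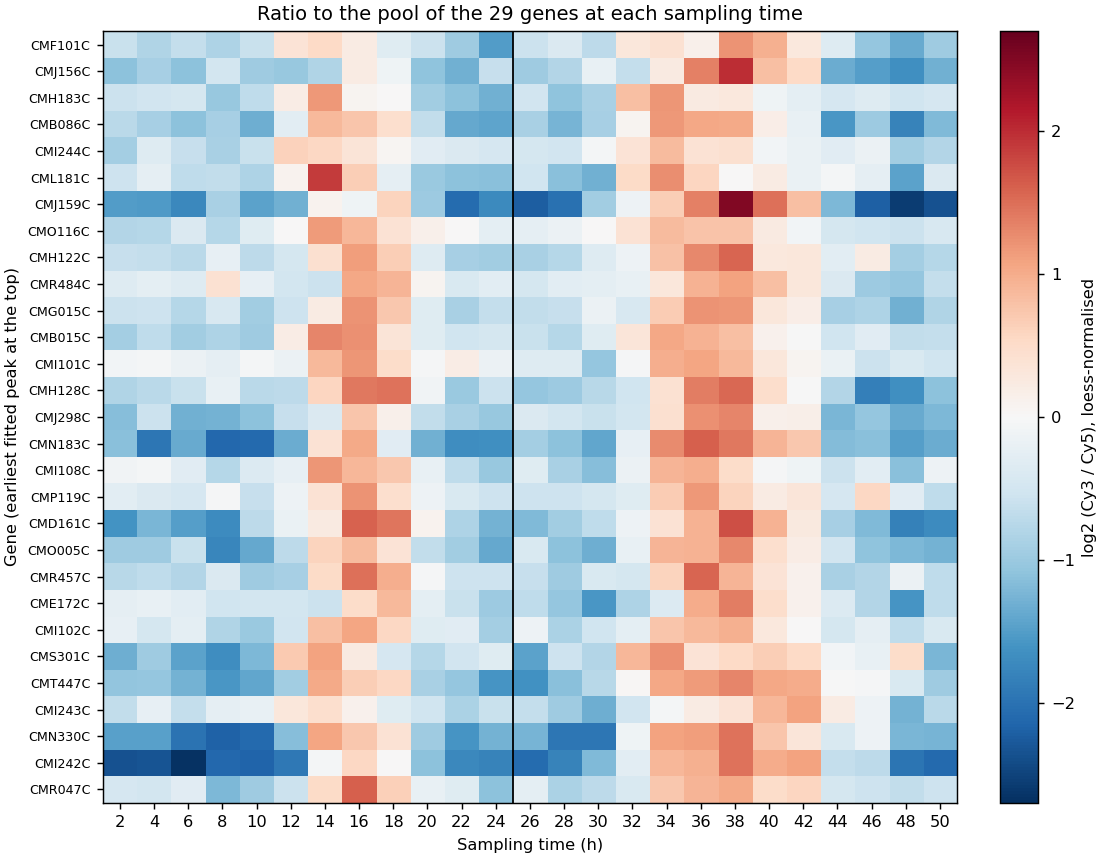
Log2 ratio to the pool (colour, loess-normalised) of the 29 genes in rows, at the 25 sampling times in columns, with 1 measurement per cell and a line between the cycles. Rows are ordered by the fitted peak on the values used for the choice. The red block spans 14 to 18 h, and a day later 34 to 38 h or longer.

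The spread between series 1 and 2 at a time was small beside these courses. The SD over times of the difference between series 1 and 2 was 0.05 to 0.25 in the 29 genes, with a median of 0.10 (0.08 over all genes), whereas the distance from lowest to highest value over all times was 1.79 to 5.06. At 14 h only series 3 holds intensities. That spread may be technical alone.

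CMJ159C had the widest course. In the first cycle its ratio ran from -2.07 at 22 h to 0.59 at 18 h with a median of -1.37 over the 12 times, and in the second from -2.56 at 48 h to 2.501 at 38 h with a median of -0.54. Its second-cycle maximum was the highest value of any of the 29 genes. CMJ156C followed the same form, with highest values of 0.22 at 16 h and 1.98 at 38 h. Its lowest values were -1.29 at 22 h and -1.66 at 48 h, and its medians -0.93 and -0.42. In both genes the second daily peak was the larger.

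CMI242C was the deepest below the pool at the start of the culture, at -2.35, -2.34 and -2.68 at 2, 4 and 6 h. It was still at -1.94 at 12 h, stood at -0.06 at 14 h and reached its first-cycle maximum of 0.57 at 16 h. In the second cycle it ran from -2.08 at 26 h to 1.47 at 38 h, and stayed between 0.91 and 1.47 at the 5 times from 34 to 42 h. Its cycle medians were -1.87 and -0.47.

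CMN330C, CMN183C and CMT447C were below the pool at every time from 2 to 12 h and above it at 14 h. CMN330C was at -1.15 at 12 h and 1.07 at 14 h, a step of 2.22 that was the largest of the 29 genes. CMT447C stepped by 1.95 and CMN183C by 1.72 over the same 2 h. In the second cycle CMN330C was at -1.95, -0.11 and 1.08 at 30, 32 and 34 h, CMN183C at -1.41, -0.22 and 1.28, and CMT447C at -0.75, 0.03 and 1.04. All 3 genes were thus well above the pool at 34 h, 10 h within that cycle. Their highest values were 1.07, 1.01 and 1.02 before 26 h, and 1.48, 1.62 and 1.32 from then on.

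CMD161C and CMH128C were high late in the first cycle. CMD161C was at 1.59 and 1.44 at 16 and 18 h and CMH128C at 1.43 and 1.47. Both were highest at 38 h in the second cycle, at 1.74 and 1.55. Their lowest values were -1.70 (8 h) and -1.83 (48 h) for CMD161C and -1.01 (22 h) and -1.84 (46 h) for CMH128C. Their medians were -0.77 and -0.42 for CMD161C and -0.59 and -0.64 for CMH128C.

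CMB086C, CMO005C, CMF101C and CMG015C make up the rest of the 12 genes with the widest fitted courses on the values used for the choice. CMB086C ran from -1.43 to 0.87 in the first cycle, with its maximum at 14 h, and from -1.80 to 1.16 in the second, with its maximum at 34 h. CMO005C ran from -1.75 to 0.85 (16 h) and from -1.33 to 1.30 (38 h). CMF101C, the gene with the earliest fitted peak on the values used for the choice, was above the pool by 12 h (0.36). It ran from -1.52 to 0.55 (14 h), then from -1.37 to 1.21 (38 h). CMG015C ran from -0.93 to 1.22 (16 h) and from -1.31 to 1.21 (36 h). Each of these 4 genes was above the pool at 14 and 16 h and at 34, 36 and 38 h.

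Among the other 17 genes the highest first-cycle value was that of CML181C, 1.90 at 14 h, in a peak with values above the pool from 12 to 16 h only. CMR047C, with the latest fitted peak on the values used for the choice, was highest at 16 h (1.60) and at 38 h (1.03). CMH183C, by contrast, was highest at the earlier times of 14 h (1.18) and 34 h (1.18). CME172C and CMR484C were still at -0.59 and -0.57 at 14 h, and stood at 0.49 and 1.05 at 16 h. Of the 8 genes already above the pool at 12 h, CMS301C (0.70), CMI244C (0.62) and CMF101C (0.36) were the highest. Genes other than those named by the fixed rule were picked for these remarks after their values were seen.

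The width and edges of the daily peak differed between the cycles. For each gene and cycle the time was interpolated at which the ratio crossed the midpoint between that cycle's lowest and highest value, before and after the highest value. The upward crossing lay at 10.0 to 15.0 h of the first cycle (median 12.8 h) and, with 24 h subtracted, at 6.08 to 10.4 h of the second (median 8.34 h). Its change had a median of -4.55 h and a range of -6.12 to -0.29 h, so that it was earlier within the second cycle for 29 of 29 genes. The downward crossing moved less, with a median change of -0.77 h, and was earlier in 22 genes and later in 7. Its timing depended on the processing, with 15 of 28 genes earlier on the authors' log2 values, 17 of 26 with scaling between arrays (median change -0.29 h) and 18 of 29 with median centring. Without 42 h the median change was -1.63 h. The time spent above the midpoint was 6.52 h in the median gene at first and 10.0 h later, and was longer the second time for 29 of 29 genes. These are descriptions of 1 course per cycle, with a time grid of 2 h, and carry no test.

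CMR484C had the largest move of the upward crossing, from 15.0 to 8.88 h. CMO116C followed with 12.3 and 6.63 h. CMI243C had the smallest, from 10.0 to 9.72 h, and in this gene the downward crossing was instead later, at 21.9 h against 17.4 h. CMT447C also stayed high longer, with downward crossings at 19.2 and 22.7 h, and had the longest time above the midpoint, 15.1 h.

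**Figure D2:**
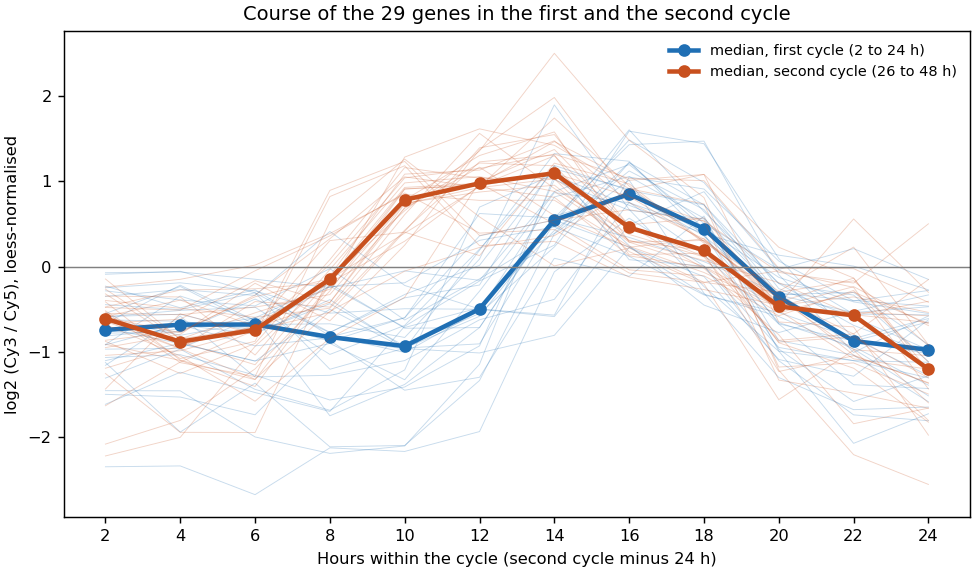
Log2 ratio to the pool against hours within the cycle, with 24 h subtracted in the second cycle; thin lines are the 29 genes and thick lines their medians in the first (blue) and second (orange) cycle. The medians are -0.93 and 0.78 at 10 h within the cycle, and -0.36 and -0.47 at 20 h.

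**Figure D3:**
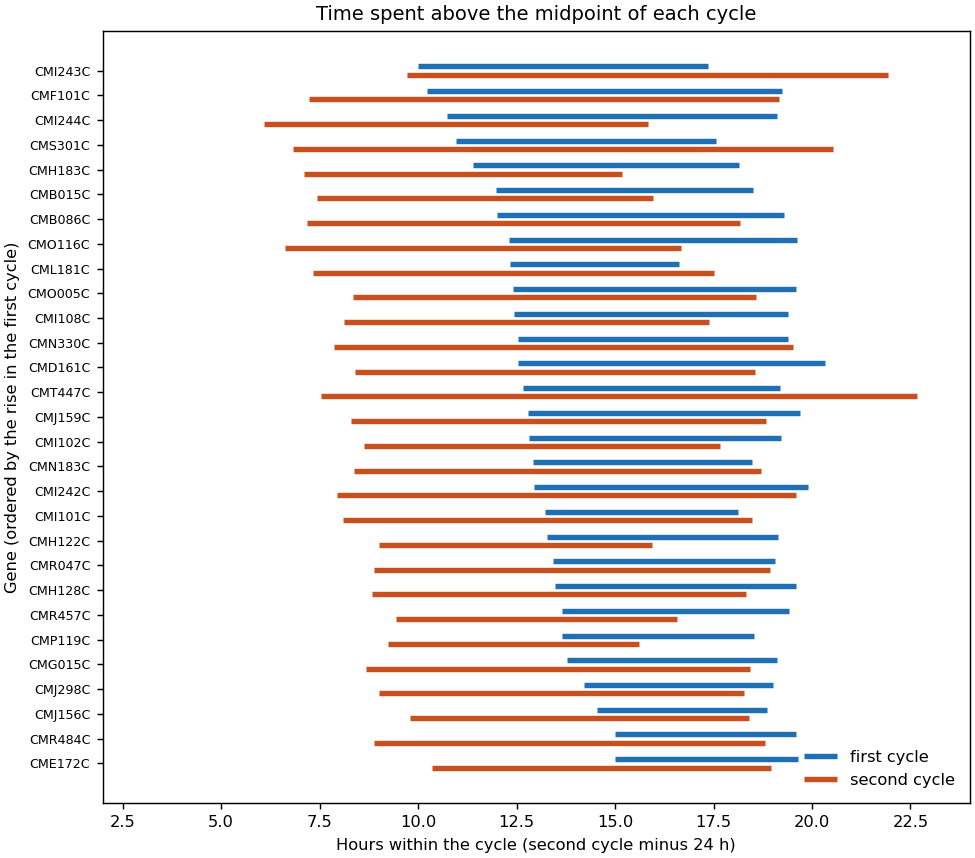
Bars span the hours within the cycle during which each of the 29 genes was above the midpoint of that cycle, in the first (blue) and the second (orange) cycle. The orange bars start earlier in 29 of 29 genes and end earlier in 22.

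A course that is moved as a whole should resemble the other cycle best at a fixed lag. Within a gene, the correlation of the 12 matched values of both cycles had a median of 0.35 over the 29 genes. It was 0.70 when the second cycle was taken 2 h earlier (11 times) and 0.84 when it was taken 4 h earlier (10 times). The best lag was not shared by all genes. CMI243C went the other way, with 0.50, 0.03 and -0.36, and CMF101C was most alike with no lag (0.82). CMJ159C (0.80, against 0.61 at 4 h) and CMJ156C (0.61, against 0.47) were most alike at 2 h. So were, by small margins, CMD161C (0.93, against 0.90) and CMI242C (0.82, against 0.80). The points of a correlation share their arrays, and these values are descriptions.

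Genes with neighbouring peak times gave a frame for these values. Of 60 genes that met the same limits with peaks from 9 to 13 h, 49 had an upward crossing in both cycles, and it was earlier the second time for 46 of them (median change -4.44 h). Of 21 genes with peaks after the window of the 29, up to 22 h, it was earlier for 13 (median change -1.79 h). The earlier upward crossing was therefore not particular to the 29 genes. The time above the midpoint was also longer the second time for 46 of 49 genes peaking at 9 to 13 h.

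Whether the 24 h component differed between cycles was tested with a model over 24 times (2 to 48 h) that gave each cycle its own level, cosine and sine. The test was the moderated F-test of limma, adjusted by Benjamini-Hochberg over all genes. The rule averaged both cycles and did not use their difference, although its limit on R2 bounds how unlike they can be. The test called 6 of the 29 genes (20.7%) at an adjusted p under 0.05, where 108 of 4576 genes (2.36%) were called. Among all 239 genes within the limits of size and R2 it called 22 (9.21%), 1 of the 60 with peaks from 9 to 13 h, 1 of the 21 that peak later, up to 22 h, 8 of the 78 from 4.5 to 9 h and 3 of the 43 before 4.5 h. Without adjustment, p was under 0.05 in 18 of the 29 (62.1%), in 93 of the 239 (38.9%), in 9 of the 21 that peak later (42.9%) and in 738 of all genes (16.1%). Whether the share differs between the peak windows was not tested, since genes on the same arrays are not replicates.

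The 6 genes differed in how their cycles differed. In CMO116C (adjusted p = 0.00399, limma) the fitted peak-to-trough difference was similar in both cycles, 1.54 and 1.37, and the fitted peak was at 16.2 h first and at 11.4 h later. CMO116C was above the pool from 12 to 22 h and again from 30 to 40 h, which is 6 to 16 h within its cycle. The edges of these spans are not firm. At 12, 22 and 30 h its values were 0.014, 0.005 and 0.017, and with median centring they were -0.009, -0.199 and -0.065. In CMD161C (adjusted p = 0.0218) the size was again alike, 2.83 and 2.80, and the peak was at 16.4 and 13.2 h.

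In CMJ159C and CMJ156C size and time both differed. The peak-to-trough difference of CMJ159C was 1.67 at first and 4.54 later, with peaks at 15.4 and 13.4 h (adjusted p = 0.0145, limma). That of CMJ156C was 0.59 and 2.83, with peaks at 15.7 and 12.97 h (adjusted p = 0.0467). In CMI242C the fitted size was 2.61 and 3.50 and the peak was at 16.8 and 14.1 h (adjusted p = 0.0277).

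CMI243C was the single gene with a later fitted peak in the second cycle, at 15.97 h against 12.8 h, and a peak-to-trough difference of 1.98 against 0.95 (adjusted p = 0.0277, limma). Its first-cycle values ran from -0.85 at 22 h to 0.46 at 14 h, with a median of -0.28, and its second-cycle values from -1.32 at 30 h to 1.08 at 42 h, with a median of -0.09. At 42 h, 18 h within the cycle, it was at 1.08, whereas it was at -0.33 at 18 h.

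The calls were not equally firm. Over 35 alternative fits CMO116C was called in 35, CMJ159C and CMD161C in 34, CMI242C in 29, CMI243C in 27 and CMJ156C in 10. These totals include the fits with all arrays as separate values, which add samples by construction and called each of these genes. They also include fits without a series, which largely repeat the same values because series 3 is the mean of the others. Fits of both kinds are among the 10 that called CMJ156C. The totals are therefore not counts of independent checks. With log ratios scaled to a common spread per array, 3 genes were called (CMD161C, CMI243C and CMO116C). Without the 4 bright times 5 were called: CMO116C, CMD161C and CMJ159C remained, CMB086C and CMO005C were added, and CMI242C (adjusted p = 0.0616), CMI243C (0.0749) and CMJ156C (0.0835) were lost. CMI242C was also lost with scaling (0.451), on the authors' log2 values (0.125), with median centring (0.102), and when 10 h (0.0558) or 34 h (0.0583) was left out. CMI243C was also lost with normexp background correction (0.140) and when 4, 18, 20, 30, 40 or 42 h was left out (0.0571 to 0.0696). CMJ159C was lost with scaling (0.120) and CMD161C with array weights (0.0601). CMJ156C was lost when any time but 16, 22, 26, 28, 32 or 34 h was left out, with adjusted p of 0.0533 to 0.166 over all fits that lost it.

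**Figure D4:**
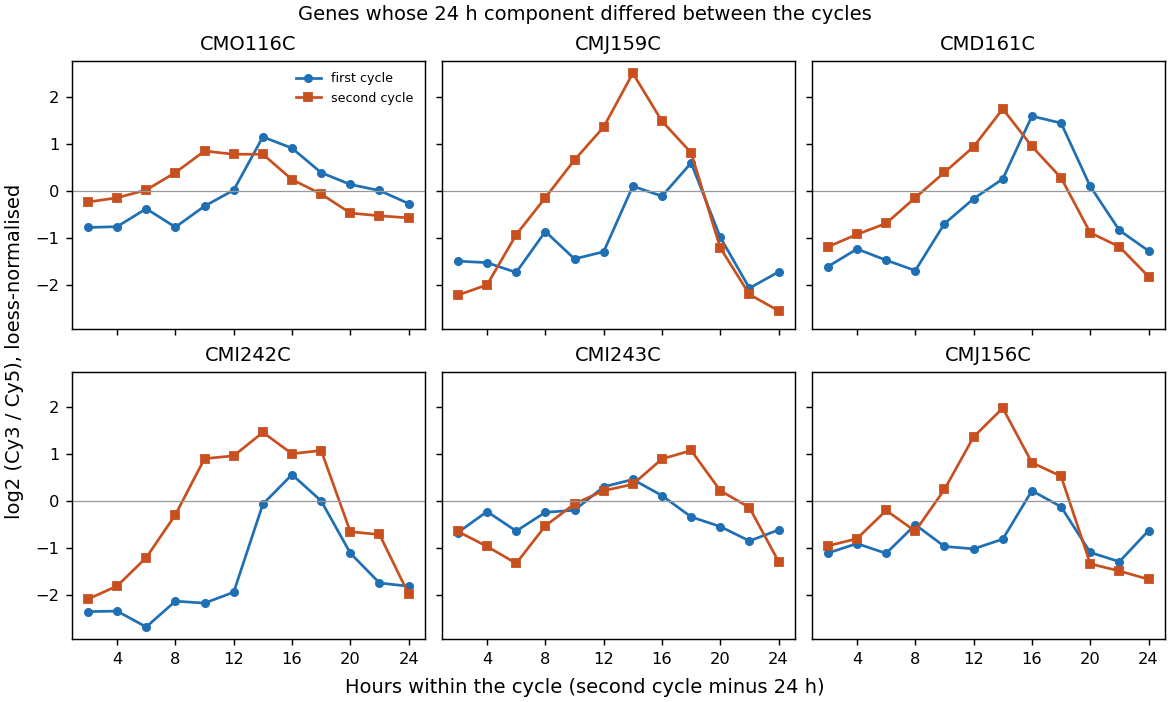
Log2 ratio to the pool of the 6 genes called for a different 24 h component, against hours within the cycle, in the first (blue) and the second (orange) cycle, with 1 value per time. CMI243C is the one whose second-cycle peak is later, and CMJ159C and CMJ156C have the larger second peaks.

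Fitted in each cycle alone, the peak of the 29 genes was at a median of 16.2 h at first and of 13.2 h within the later cycle. The shift had a median of -2.97 h and ran from -4.87 h (CMO116C) to 3.20 h (CMI243C). The fitted peak was earlier the second time for 28 of 29 genes, and by over 1 h for 26. Over all 4576 genes, most of them with small fitted courses, it was earlier in 49.8%. It was earlier in 40 of 60 genes with peaks from 9 to 13 h (median -1.32 h) and in 15 of the 21 peaking later, up to 22 h (median -1.31 h). With peaks from 4.5 to 9 h the fitted peak was earlier in only 20 of 78 genes (median 1.42 h later). Without the 4 bright times, the 29 genes had a median shift of -2.64 h, again earlier in 28.

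The fitted peak-to-trough difference was the larger one in the second cycle for 24 of the 29 (medians 1.54, then 1.97). This held as well for 55 of the 60 genes with peaks from 9 to 13 h, for 171 of the 239 within the limits and for 2668 of all 4576. The 4 bright arrays had a small spread over all genes (SD 0.22 to 0.26, and 0.22 at 32 h), and 3 of the 4 lie in the first cycle. The part of array brightness in this size was not tested.

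Mean levels were set against each other between the cycles by 12 differences between times 24 h apart. A 24 h cosine of the same size and time in both cycles cancels in each difference. A cosine that changes between the cycles cancels only in the mean of all 12, and it widens their scatter. Where a pair is left out, it does not fully cancel in the mean. Of the 29 genes 1 was higher at an adjusted p under 0.05 and at least 1.5-fold, against 12 of 4576 genes (0.262%), and none was lower by limma (41 of all genes were). Unadjusted p was under 0.05, in either direction, in 6 of the 29 (20.7%) and in 831 of all genes (18.2%). The gene called higher was CMI242C, whose ratio was higher by 1.20 ± 0.26 (SE, n = 12 differences; adjusted p = 0.0230, limma) and was higher at 11 of 12 times. The next were CMT447C (0.85 ± 0.23, adjusted p = 0.0563), CMN183C (1.00 ± 0.30, adjusted p = 0.0800) and CMF101C (0.39 ± 0.12, adjusted p = 0.0907), which did not pass. The difference was positive in 25 of the 29 genes, with a median of 0.22, and in 53.6% of all genes, with a median of 0.01. It was also positive in 19 of the 21 genes with later peaks, up to 22 h.

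The call of CMI242C was lost without the pair of 8 and 32 h (1.15, adjusted p = 0.0588), without the pair of 14 and 38 h (1.18, adjusted p = 0.0508), and without the 4 bright times (1.35, adjusted p = 0.0542), where CMT447C was called instead. CMT447C was called as well when the pair of 2 and 26 h or of 4 and 28 h was left out, and CMN183C when that of 24 and 48 h was.

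A plain cosine was also tested against a course with a 12 h component, which a narrow or double peak would carry. None of the 29 genes and none of the 4576 (0%) was called by limma (lowest adjusted p = 0.999). The fit gave both cycles the same course, while the upward crossing of the 29 moved by a median of -4.55 h between them. A 12 h component that moves in this way can partly cancel, so nothing is concluded on narrow peaks. Unadjusted p was under 0.05 in 4 of the 29, namely CMF101C, CMR047C, CMH128C and CMG015C, and in 115 of all genes (2.51%). Among the 239 genes within the limits of size and R2 it was under 0.05 in 24 (10.0%), and in 8 of the 43 with peaks before 4.5 h. The fitted 12 h peak-to-trough difference of the 29 ran from 0.15 to 1.02 with a median of 0.59. The median was 0.39 in the 239 genes and 0.10 over all genes.

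The courses of the 29 genes resembled each other, as the choice by peak time makes likely. Over the 25 times the correlation of 406 pairs ran from 0.21 to 0.96, with a median of 0.77. The points of each pair share their arrays, and no test is attached.

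The pool is meant to be the same on every array, so its dye channel was examined alone. Centred on each array's median, the Cy3 channel of the 29 genes had a 24 h peak-to-trough difference of 1.30 to 4.07 (median 2.25) and a fitted peak at a median of 14.8 h. The Cy5 channel, which carries the pool, also had a 24 h component, of 0.18 to 1.59 (median 0.99), with a fitted peak from 13 to 18 h in 21 of the 29 (median 16.4 h). Genes with other ratio peaks had similar Cy5 timing, with medians of 16.2 h for ratio peaks before 4.5 h, 16.7 h for 4.5 to 9 h, 16.4 h for 9 to 13 h and 14.9 h for those after the window of the 29. The Cy5 component was at least 1 in 14 of the 29 genes and in 286 of all genes (6.25%). Its median was 0.81 for ratio peaks before 4.5 h, 0.86 for 4.5 to 9 h and 0.77 for 9 to 13 h. It was 0.78 for those after the window of the 29, and 0.44 over all genes. A sizeable Cy5 component was therefore not particular to the 29 genes. The Cy3 component exceeded that of Cy5 in each of the 29 genes. The choice by the size of the ratio makes this likely where both dyes peak close together, so nothing is read from it. In the log ratio the Cy5 course is subtracted, and its part in the timing of the ratio was not tested. CMJ159C had the largest component in both dyes, 4.07 in Cy3 and 1.59 in Cy5. CML181C (0.18), CMI243C (0.19) and CMJ298C (0.29) had the smallest in Cy5. The lowest Cy3 intensity of a gene at any time was 1300 to 9785 and the lowest Cy5 intensity 470 to 7452.

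By locus-tag order, 5 of the 29 genes had another of the 29 as an immediate neighbour. CMI242C, CMI243C and CMI244C are consecutive tags, and CMI101C and CMI102C are adjacent. Of the 48 other immediate neighbours that were measured, the correlation with the gene beside them over the 25 times ran from -0.57 to 0.74, with a median of 0.04. These neighbours were not chosen by peak time, so they give no measure for pairs within the 29.

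The 3 consecutive genes had different courses. CMI244C was the earliest, highest at 12 h (0.62) and 34 h (0.86), and was back below the pool at 40 h. CMI242C was highest at 16 and 38 h, and CMI243C at 14 and 42 h. The correlation was 0.67 between CMI242C and CMI243C, 0.52 between CMI243C and CMI244C and 0.72 between CMI242C and CMI244C. The genes on either side had small 24 h components, with a peak-to-trough difference of 0.08 in CMI241C and 0.35 in CMI245C.

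**Figure D5:**
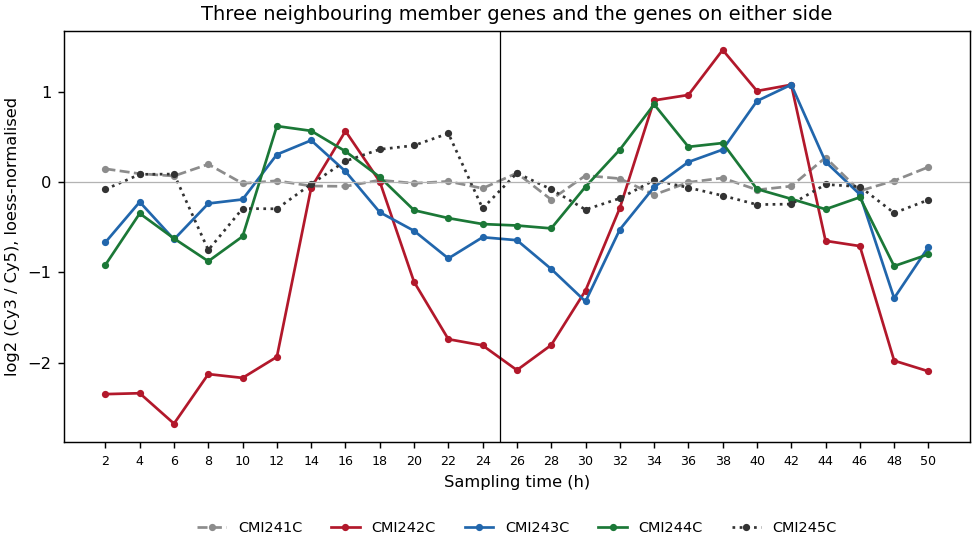
Log2 ratio to the pool of the consecutive genes CMI242C (red), CMI243C (blue) and CMI244C (green) and of CMI241C and CMI245C on either side (grey dashed and black dotted) at 25 times, with a line between the cycles. In the second cycle CMI244C is highest at 34 h, CMI242C at 38 h and CMI243C at 42 h, while CMI241C stays close to 0.

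CMI101C and CMI102C were alike, with a correlation of 0.85. CMI101C ran from -0.25 to 1.20 at first and from -1.04 to 1.05 later, with medians of -0.06 and -0.11. CMI102C ran from -1.01 to 1.06 and from -0.85 to 0.95, with medians of -0.32 and -0.19. CMI099C, before CMI101C, had a 24 h peak-to-trough difference of 0.54 and correlated with it at 0.74, and CMI103C, after CMI102C, had one of 0.11. A few places on, CMI108C correlated with CMI101C at 0.86 and with CMI102C at 0.90.

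Other near pairs were also alike. CMJ156C and CMJ159C, 2 places apart, correlated at 0.92. CMJ157C, between them, had a peak-to-trough difference of 0.30 and correlated with them at 0.71 and 0.64. CMH122C and CMH128C, 4 places apart, correlated at 0.85. The differences between series 1 and 2 correlated over times at 0.15 in the CMJ pair and -0.06 in the CMH pair. Over all near pairs named here, the CMI pairs included, this correlation was -0.27 to 0.24.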

How the data were processed

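Two-colour arrays of 25 times were analysed. The deposited intensities of Cy3 (time point) and Cy5 (pool) are raw values of each dye per the file headers. Neither headers nor labels state the scanner, the background handling or the array's build. The authors' deposited log2 values, partly centred per probe, served as an alternative. The ratio of Cy3 over Cy5 was formed here from the deposited intensities, following the dyes per the labels.

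Log2 ratios were normalised by loess within each array and probes averaged per gene (limma 3.58.1, R 4.3.3). No background was subtracted and no gene was filtered. The 29 genes were chosen on median-centred values of series 3. Tests ran on all 4576 genes with Benjamini-Hochberg adjustment. They were also tried on simulated data with independent noise at each time, which the measured courses need not have, so nothing is concluded from that trial. The members and lists were chosen with earlier results of these data known.

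Genes named are the 12 of largest peak-to-trough difference, the 3 earliest and 3 latest peaks, the 2 on each side of each limit, those called in each test and neighbours in tag order. Neighbours and names come from RefSeq assembly ASM9120v1, in which 4565 of the genes and all 29 members were matched. The planned functional lists and the promoter search were empty for want of product names and sequences, and are not analysed here. The replicate numbers name the 3 series, of which the third is the mean of the others, so they pair no independent samples and were left out of the main tests. The number of arrays limits the precision. Alternatives covered normalisation, scaling, background, bright times, each time and series left out, array weights, thresholds and all arrays with and without a replicate block. The earlier peak and earlier crossing were added to these after seeing the data.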

Additional observations from a re-analysis of the deposited data

Results flagged for a closer look

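The test of the difference between the cycles, the interaction of the 24 h terms with cycle in limma, picked out 6 of the 29 genes. The size given is the peak-to-trough height, on the log2 scale, of the curve left when the fitted 24 h curve of 1 cycle is subtracted from that of the other. It was 3.23 in CMJ159C, 2.42 in CMJ156C, 2.31 in CMD161C, 2.30 in CMI242C, 1.74 in CMO116C and 1.52 in CMI243C. The 12 times of each cycle come from 1 course.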

How the results depend on the processing

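The number of genes within the limits and window was 29 by the rule, 56 after normexp background correction (28 of the 29 kept), 46 without 2, 4, 6 and 26 h (27 kept) and 13 with a minimum peak-to-trough difference of 1.5. It was 23 to 35 with 1 time left out, with 22 to 29 of the 29 kept. On the authors' log2 values it was 42, with only 23 kept. With loess it was 37 (28 kept) and with scaling between arrays 38 (28 kept). The count with another level in the second cycle was 1, and was 2 with scaling between arrays, 3 with normexp, and 0 to 2 with 1 time and its matched time left out. The count with another 24 h component was 6, and was 3 with scaling and 4 to 7 with 1 time left out. With all arrays as separate values and the series as a replicate block it was 25, with a level count of 5 and a 12 h count of 15. Without a block these were 25, 5 and 17. Both fits count the 3 series at a time as separate samples although 1 is the mean of the others, which adds samples by construction. The cause of the other moves was not tested. No result reversed in direction. The fitted peak was earlier in 26 to 28 of the 29 genes and the upward crossing in 28 or 29 under every normalisation, time and series alternative, with a median peak shift of -1.94 h with scaling to -3.37 h without 22 h.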
